A study of Homo sapiens with 10 samples.

Results

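The genes described here are 8 genes of the major histocompatibility complex (MHC) on chromosome 6, namely HLA-B, HLA-C, HLA-E, HLA-F, HLA-DRA, TAP1, TAP2 and BTNL2, together with B2M on chromosome 15. They were selected on their names, with earlier results of these data known, and no record states which measured values drew attention to them, so that every ESC to NEC difference of these 9 genes is given below as a description without a test. Each of the 9 has 1 row among the 31017 genes of the RNA-seq count table, and 8 of the 9 have a promoter fragment among the 21833 baits of the promoter capture Hi-C (PCHi-C) lists. The study profiled H9 (WA09), an established human embryonic stem cell line without an introduced allele or transgene in its labels, and neuroectodermal cells (NECs) derived from it and harvested on day 7 of differentiation. Each cell type had 2 biological replicates of PCHi-C and 2 of RNA-seq, and 1 Hi-C sample of each cell type was not analysed here. All samples come from a single cell line. The labels give a shared sequencing lane for the ESC RNA libraries and a different one for the NEC RNA libraries, so that lane and cell type cannot be told apart.

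MHC class I molecules consist of a heavy chain (such as HLA-B and HLA-C, and the less variable HLA-E, HLA-F and HLA-G) bound to beta-2 microglobulin, the product of B2M, and they display peptides from inside the cell to CD8+ T cells and natural killer cells. The peptides are cut by the proteasome, pumped into the endoplasmic reticulum by the transporter made of TAP1 and TAP2, and loaded there with the help of chaperones. MHC class II molecules such as HLA-DR, whose alpha chain is encoded by HLA-DRA, are found mainly on professional antigen-presenting cells, and pluripotent cells are known for low levels of MHC molecules. BTNL2 is a butyrophilin-like relative of the B7 costimulatory molecules, and its gene lies next to HLA-DRA at the border of the class II region.

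Library totals were 19234087 and 25356382 reads in ESCs and 20793224 and 24323762 in NECs. The pluripotency markers POU5F1, NANOG, DPPA4 and TDGF1 were called lower in NECs and all 5 neuroectodermal markers were called higher. Summed levels in CPM (reads of a gene scaled to the normalised library size) of the 5 pluripotency markers were 4066 and 4176 in ESCs and 895 and 1268 in NECs, with POU5F1 at 663 reads in the first and 2749 in the second NEC library. LIN28A, the pluripotency marker not called (log2 fold change -0.69), made up most of the NEC sums, with a mean of 835 CPM in NECs. The NEC means of the others were 167 CPM for DPPA4, 71.2 for POU5F1, 6.47 for TDGF1 and 1.29 for NANOG. The mesendoderm markers T, MIXL1, EOMES, GATA6 and SOX17 summed to 29.3 and 83.9 CPM in the ESC libraries and to 3.18 and 2.51 CPM in the NEC libraries, and the 5 neural crest markers summed to 19.1 and 20.1 CPM in the ESC libraries and to 115 and 21.1 CPM in the NEC libraries. Of 3 endothelial markers, CDH5 (4 and 0 against 23 and 54 reads) and VWF (18 and 15 against 150 and 175 reads) were called higher in NECs and TEK was not called, and the 3 summed to 64.2 and 60.6 CPM in ESCs and to 48.3 and 78.3 CPM in NECs. The part of such cells in the differences given below was not tested. None of the 6 leukocyte markers had more than 16 reads in a library, and CD3E had 0 in all 4. Summed leukocyte marker levels were 1.22 and 1.17 CPM in ESCs and 0.468 and 0.122 CPM in NECs. In such bulk samples, fewer cells of a type and less RNA per cell cannot be told apart.

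Between ESCs and NECs the mean levels of HLA-B, HLA-E and B2M lay close together, while those of HLA-C, HLA-F, TAP1 and TAP2 were lower in NECs. Per kilobase of exons, HLA-C had the highest level of the 9 genes, at 69.3 ± 0.377 CPM per kb in ESCs and 35.1 ± 3.26 CPM per kb in NECs (mean ± SD, n = 2 libraries each). In ESCs it was followed by HLA-E (13.5 ± 1.64), B2M (12.2 ± 0.0325), HLA-B (5.44 ± 0.477), TAP1 (1.96 ± 0.354), TAP2 (1.00 ± 0.133), HLA-F (0.746 ± 0.0738), HLA-DRA (0.313 ± 0.201) and BTNL2 (0.301 ± 0.0984), all in CPM per kb. Within ESCs, the replicate ranges of neighbours in this order overlapped only for HLA-DRA and BTNL2. The exon lengths came from another gene set than the counts, and the order depends on them. For HLA-B the length used, 4623 bases, exceeds the span of the gene in the count table (31321649 to 31324965). Reads lost where H9 alleles differ from the reference genome were not measured. Before division by length, TAP2 (10.4 CPM in ESCs) stood above TAP1 (9.29 CPM). Within NECs the order was the same except that B2M (13.6 ± 0.524) stood before HLA-E (13.5 ± 1.56), whose replicates overlapped with it, and that BTNL2 (0.184 ± 0.0772) stood before HLA-DRA, which had no reads.

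**Figure D1:**
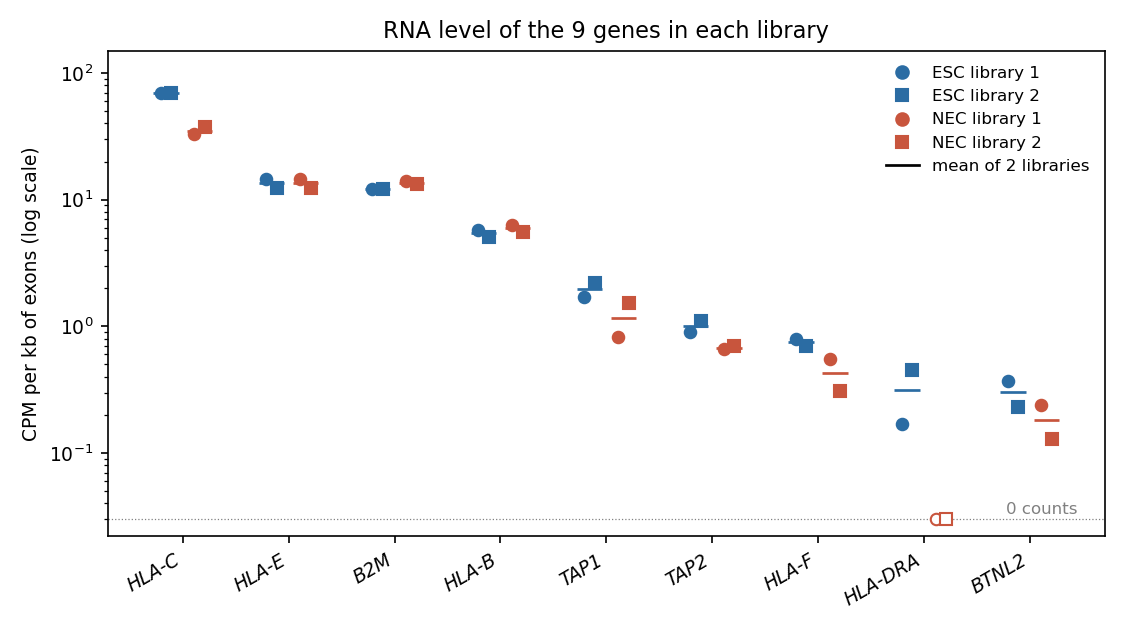
RNA level of each of the 9 genes on the y axis (CPM per kb of exons, log scale) in each library, with circles for library 1 and squares for library 2 of each cell type and short lines for the mean of 2 libraries. HLA-C stands highest in both cell types and lower in NECs, at 35.1 against 69.3 CPM per kb, HLA-B, HLA-E and B2M lie close together between cell types, and both NEC libraries have 0 counts of HLA-DRA.

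HLA-C (ENSG00000204525, chr6:31236526-31239907 on GRCh37, minus strand), a classical class I heavy chain that is also a ligand of killer cell receptors, had 3290 and 4276 reads in the ESC libraries and 1759 and 2316 in the NEC libraries. Its mean level was 174 ± 0.945 CPM in ESCs and 88.1 ± 8.17 CPM in NECs, the libraries of the 2 cell types did not overlap, and its log2 fold change (NEC over ESC) was -0.98 with a standard error of 0.097. HLA-B (ENSG00000234745, chr6:31321649-31324965, minus strand), the other classical heavy chain of the list, had 504 and 583 reads in ESCs and 620 and 635 in NECs. Its levels of 25.1 ± 2.21 CPM in ESCs and 27.4 ± 2.32 CPM in NECs overlapped between libraries, with a log2 fold change of 0.12 and a standard error of 0.12. Class I genes share long stretches of sequence, so that the division of reads among them is uncertain.

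HLA-E (ENSG00000204592, chr6:30457244-30461982, plus strand), which presents leader peptides of other class I molecules to natural killer cells, had 807 and 889 reads in ESCs and 910 and 892 in NECs. Its mean levels of 39.4 ± 4.80 and 39.4 ± 4.55 CPM gave a log2 fold change of 0.0013 with a standard error of 0.13, and the libraries overlapped. HLA-F (ENSG00000204642, chr6:29690552-29706305, plus strand), a nonclassical heavy chain, had 65 and 74 reads in ESCs and 51 and 33 in NECs, or 3.22 ± 0.318 against 1.86 ± 0.742 CPM. The NEC libraries were both below the ESC libraries, with a log2 fold change of -0.79 and a standard error of 0.34 (-1.25 without the first and -0.43 without the second NEC library), and the gene overlaps HLA-F-AS1, whose reads cannot be separated in counts made without strand. B2M (ENSG00000166710, chr15:45003675-45011075, plus strand), the light chain of every class I molecule, had 715 and 940 reads in ESCs and 932 and 1019 in NECs. Its 38.0 ± 0.101 CPM in ESCs and 42.5 ± 1.63 CPM in NECs did not overlap, and the log2 fold change was 0.16 with a standard error of 0.0925.

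Promoter sequences of the class I heavy chains and B2M are shown because HLA-B and HLA-C, next to each other on the chromosome, gave different values while their upstream regions hold most of the same elements. The windows of RefSeq (build GRCh38.p14) run from 250 bases before to 50 after each gene start, and 7 of the 9 genes matched a window (TAP1 matched 2), while HLA-E and HLA-DRA did not. The stretches printed here, bases -200 to -45 from the RefSeq start, each occurred once in GRCh37, at chr6:31325001-31325156 for HLA-B, chr6:31239914-31240069 for HLA-C, chr6:29691011-29691166 for HLA-F and chr15:45003515-45003670 for B2M. They are reference sequences, and the alleles of H9 were not read. Capitals mark matches on either strand to CCAAT (the core of the Y box bound by NF-Y), TGACG (a cAMP response element core found in the X2 box), GAANNGAAA (a short form of the core of an interferon-stimulated response element) and GGGATTCC (an NF-kappaB core in enhancer A).
HLA-B: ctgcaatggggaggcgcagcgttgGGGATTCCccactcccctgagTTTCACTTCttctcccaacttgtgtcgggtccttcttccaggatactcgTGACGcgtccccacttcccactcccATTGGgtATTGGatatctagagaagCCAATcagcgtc
HLA-C: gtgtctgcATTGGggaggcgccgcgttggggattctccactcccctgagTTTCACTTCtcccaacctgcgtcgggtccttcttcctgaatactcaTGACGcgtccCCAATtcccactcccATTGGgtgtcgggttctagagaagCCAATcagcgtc
HLA-F: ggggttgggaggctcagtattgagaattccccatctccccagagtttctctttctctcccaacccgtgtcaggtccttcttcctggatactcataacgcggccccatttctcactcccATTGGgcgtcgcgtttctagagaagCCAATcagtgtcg
B2M: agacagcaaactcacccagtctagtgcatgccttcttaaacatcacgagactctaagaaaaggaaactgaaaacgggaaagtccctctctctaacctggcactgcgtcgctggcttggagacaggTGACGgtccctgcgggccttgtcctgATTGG
The capitals of different matches do not overlap. HLA-B and HLA-C both held GAANNGAAA (at -155 to -147 and at -151 to -143), TGACG (at -106 to -102 and at -105 to -101) and CCAAT, in 3 copies at HLA-B and 4 at HLA-C, while GGGATTCC was found in the HLA-B window alone (-176 to -169). B2M held TGACG at -75 to -71 and CCAAT at -49 to -45, and HLA-F held CCAAT at -82 to -78 and -57 to -53 and none of the other motifs. In the 35116 windows of all genes, CCAAT occurred in 34.6%, TGACG in 24.6%, GAANNGAAA in 7.66%, GGGATTCC in 1.12% and TATAAA, the TATA box, which was also searched, in 11.5%. The TAP2 window held GAANNGAAA (-63 to -55), TGACG (-35 to -31) and TATAAA (-214 to -209), the first TAP1 window held CCAAT at -249 to -245, and the BTNL2 window held CCAAT at -22 to -18. The windows of HLA-F and BTNL2 and both windows of TAP1 lie downstream of the gene starts used for the baits. A match describes the letters of a window only, and binding of a factor was not measured.

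The transporter subunits had lower mean levels in NECs, and the NEC replicates of TAP1 stood well apart. TAP1 (ENSG00000168394, chr6:32812986-32821755, minus strand) had 153 and 259 reads in ESCs and 83 and 178 in NECs, or 9.29 ± 1.68 against 5.55 ± 2.36 CPM, with a log2 fold change of -0.74 and a standard error of 0.32. The second NEC library lay close to the first ESC library, at 7.21 against 8.11 CPM, and the value ranged from -1.27 to -0.36 on the log2 scale over the alternative fits, the lowest without the second NEC library. TAP2 (ENSG00000204267, chr6:32781544-32806599, minus strand) had 177 and 280 reads in ESCs and 147 and 177 in NECs, or 10.4 ± 1.38 against 7.03 ± 0.209 CPM, with a log2 fold change of -0.56 and a standard error of 0.18. Both genes overlap neighbours. XXbac-BPG246D15.9 has the same coordinates and strand as TAP2, with 269 and 450 reads in ESCs and 223 and 299 in NECs, and HLA-DOB overlaps TAP2 too. TAP1 overlaps PSMB9 and XXbac-BPG246D15.8, so that reads in all these overlaps cannot be separated.

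HLA-DRA and BTNL2 were close to the detection limit and did not pass the filter on low counts. HLA-DRA (ENSG00000204287, chr6:32407619-32412823, plus strand) had 4 and 14 reads in the ESC libraries and 0 in both NEC libraries. Its pooled ESC level of 0.413 CPM was 6.34-fold higher than a floor of 3 reads over both NEC libraries. The floor covers counting error of the NEC reads only, and the error of the ESC reads was not included. ESC library 2, with 14 of the 18 reads, was also the library with the higher mesendoderm marker sum, and the part of those cells in the HLA-DRA reads was not tested. BTNL2 (ENSG00000204290, chr6:32359241-32379511, minus strand) had 11 and 9 reads in ESCs and 8 and 5 in NECs, or 0.473 ± 0.155 against 0.289 ± 0.121 CPM, and the libraries overlapped. Of the 9 genes, 7 passed the filter. None of the 7 passed both thresholds used for calls (an adjusted p under 0.05 and a log2 fold change beyond 1.5 in either direction), which 21.0% of the 17564 tested genes passed, and this count is given without reading anything from it.

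The other genes of antigen presentation are taken from lists of class I heavy chains, peptide loading, immunoproteasome, class II, transactivator, class I-like and butyrophilin genes. Of 58 such genes, 46 were tested with edgeR's quasi-likelihood test, 9 were called lower in NECs, 4 were called higher and 33 were not called. Across all genes, 9.68% were called lower and 11.4% higher. The 53 tested genes of these lists, including 7 of the 9 described above, had a median log2 fold change of -0.14 beside 0.014 over all tested genes.

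**Figure D2:**
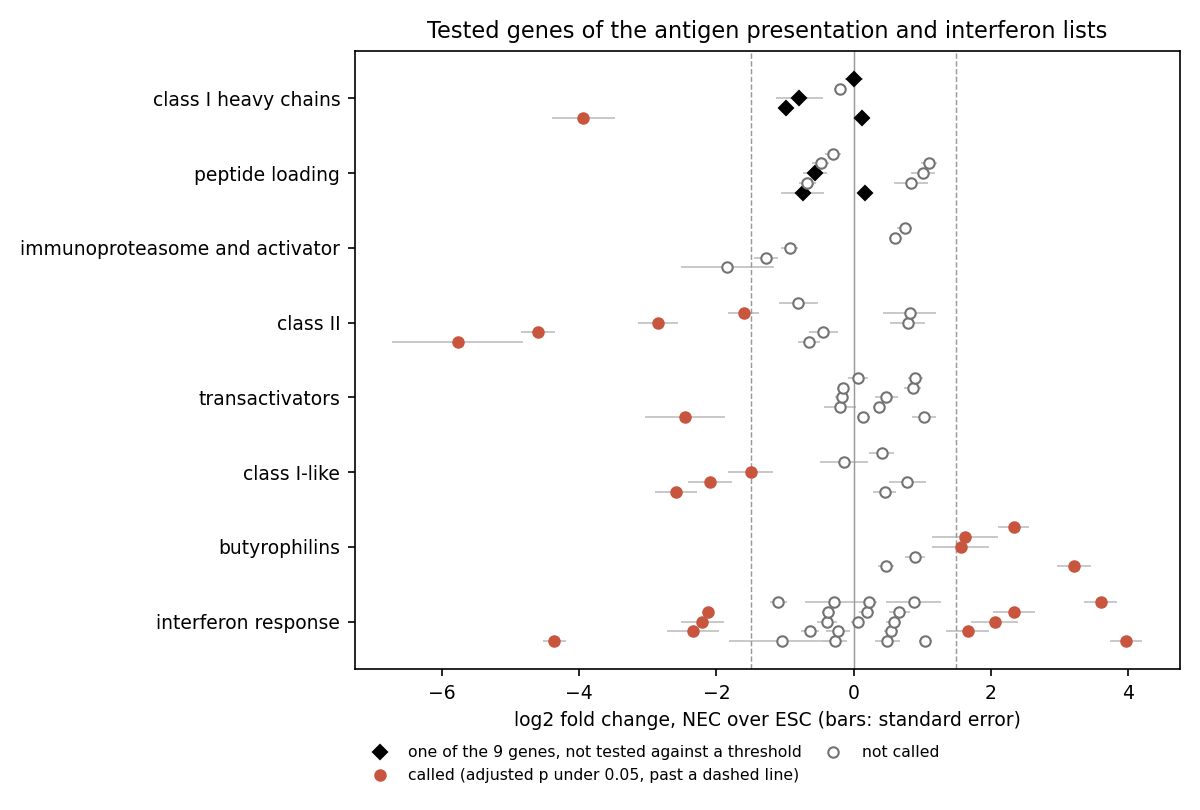
Log2 fold change (NEC over ESC, x axis, with standard errors) of each tested gene of 7 antigen presentation lists and the interferon response list. Black diamonds are 7 of the 9 genes and filled circles are genes called. Class II genes reach -5.77, and the 4 butyrophilin genes called lie between 1.56 and 3.22.

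Among class I heavy chains, HLA-G fell. This heavy chain, known from the placenta, had 75 and 89 reads in ESCs and 8 and 3 in NECs, a log2 fold change of -3.94 ± 0.46 (SE) with an adjusted p of 0.000638 in edgeR's test.

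In class II, 4 of the 9 tested genes other than HLA-DRA fell, and 0 were called higher by edgeR or by DESeq2, with 1 higher at an unadjusted p under 0.05. HLA-DQB1, the beta chain of HLA-DQ, had 484 and 875 reads in ESCs and 23 and 35 in NECs (log2 fold change -4.60 ± 0.25, adjusted p 4.42e-05 by edgeR). HLA-DRB5 (79 and 115 against 13 and 15 reads) changed by -2.85 ± 0.29 and HLA-DRB1 (347 and 475 against 103 and 186 reads) by -1.60 ± 0.23 on the log2 scale, with adjusted p-values of 0.00037 and 0.00133 in edgeR's test. These beta chains of HLA-DR share most of their sequence, so that the division of reads between them is uncertain, and HLA-DRB1 was no longer called without the first NEC library. The remaining call was HLA-DQA1, named after its values were seen, with 25 and 97 reads in ESCs and 0 and 2 in NECs. As for HLA-DRA, the second ESC library held more of its reads, in step with the mesendoderm markers EOMES (289 and 1133 reads) and MIXL1 (193 and 575), and their part was not tested. HLA-DQB1, HLA-DQA1 and HLA-DRB5 were also called when either ESC library was left out. CD74, the invariant chain, had 62 and 94 reads in ESCs and 184 and 98 in NECs (adjusted p 0.105 by edgeR), and HLA-DPB1 had 231 and 338 against 168 and 213 reads.

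Of the 6 tested peptide loading genes besides B2M, TAP1 and TAP2, 0 were called by edgeR or DESeq2, although all 6 had an unadjusted p under 0.05, with 3 lower and 3 higher in NECs. Of the 5 tested genes of the immunoproteasome and its activators, 0 were called by edgeR and 1 by DESeq2 (PSMB8, lower), which edgeR also called with DESeq2 size factors, without the filter, with the replicate block and without the second NEC library. In this list 3 lower and 2 higher genes had an unadjusted p under 0.05. Tapasin (TAPBP), which bridges the TAP transporter and class I molecules, had 200 and 297 reads in ESCs and 559 and 485 in NECs, with a log2 fold change of 1.01 ± 0.18, and the peptide-trimming ERAP1 had 449 and 656 against 1068 and 1428 reads, with 1.10 ± 0.12. Both stayed under the fold threshold, with adjusted p-values of 0.00312 and 0.000472 in edgeR's test. PSMB8, an inducible proteasome subunit, had 56 and 77 reads in ESCs and 4 and 36 in NECs (adjusted p 0.0518 by edgeR), so that its NEC libraries stood far apart. Among transactivators, CIITA, the master regulator of class II genes, had 236 and 354 reads in ESCs and 291 and 356 in NECs, a log2 fold change of 0.063 ± 0.15. The only call in that list of 11 tested genes was NLRC5, the class I transactivator, named after its values were seen, which had 11 and 16 reads in ESCs and 1 and 4 in NECs and was not called by DESeq2 or without either ESC library or the first NEC library.

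In the class I-like list, 3 of 7 tested genes fell. MICB, a stress-induced ligand of the receptor NKG2D, had 313 and 394 reads in ESCs and 52 and 126 in NECs (log2 fold change -2.10 ± 0.32, adjusted p 0.00185 by edgeR), while its neighbour MICA had 244 and 239 against 309 and 382 reads and was not called. CD1D, which presents lipids, had 61 and 95 against 12 and 15 reads (-2.59 ± 0.31, adjusted p 0.000691). The third was HFE, which acts in iron uptake, at 27 and 41 against 12 and 13 reads. It was named after its values were seen and was not called by DESeq2, with library size alone, or without the second ESC or second NEC library.

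Among the butyrophilin relatives of BTNL2, 4 of 6 tested genes rose and 0 were called lower by edgeR or DESeq2, with 0 lower at an unadjusted p under 0.05. BTN3A2 rose from 18 and 26 reads in ESCs to 218 and 212 in NECs (log2 fold change 3.22 ± 0.25, adjusted p 0.000139 by edgeR), and BTN3A1, known for its part in gamma delta T cell activation, rose from 38 and 54 to 253 and 233 reads (2.33 ± 0.22, adjusted p 0.000313). BTN3A3 (20 and 17 against 70 and 46 reads) and BTNL9 (5 and 5 against 19 and 14 reads), both named after their values were seen, were the remaining calls, and neither was called without the second ESC library or without the first NEC library. BTNL9 was also not called without the first ESC library or by DESeq2. The BTN3A genes are near-identical over parts of their length, so that their reads may be divided uncertainly.

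Interferon response genes, which share regulatory elements with class I genes, were called in both directions. Of 26 tested genes, 5 rose and 4 fell, against 11.4% and 9.68% of all tested genes. IFI6 rose from 22 and 23 to 385 and 367 reads (log2 fold change 3.98 ± 0.23, adjusted p 5.64e-05 by edgeR), the virus-tethering BST2 from 113 and 90 to 1375 and 1265 reads (3.61 ± 0.24), IFIT1 from 44 and 59 to 188 and 372 reads (2.34 ± 0.31) and IFI16, a DNA sensor, from 43 and 38 to 211 and 146 reads (2.06 ± 0.35). IFITM1, a membrane protein that restricts virus entry, fell from 6494 and 9855 to 441 and 383 reads (-4.36 ± 0.17), IFITM2 from 4972 and 6445 to 1288 and 1477 reads (-2.13 ± 0.084), and SOCS1, a feedback inhibitor of cytokine signalling, from 299 and 465 to 41 and 119 reads (-2.35 ± 0.38).

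Along the chromosome, the MHC region from the start of HLA-F to the end of HLA-DPB1 spans 3364 kb. It holds 170 genes of the count table, and 120 of the 162 that are not among the 9 were tested, of which 16 fell and 7 rose, 19.2% in all beside 21.0% of all tested genes. The 7 genes that rose are not independent counts, since reads were counted without strand and C2 overlaps ZBTB12, CFB and XXbac-BPG116M5.17, the last 2 share a start, and C4A overlaps C4A-AS1. They lay between 2008 and 2281 kb from the start of HLA-F, in the class III region. They include the complement genes C2 (45 and 57 against 191 and 179 reads, log2 fold change 1.79 ± 0.23) and C4A (17 and 29 against 86 and 90 reads, 1.87 ± 0.29), the latter with a near-identical copy, DDAH2 (1.65 ± 0.16), which was not called without the first NEC library, and ZBTB12 (1.56 ± 0.095). Besides HLA-DQB1 and HLA-G, the largest falls among genes with an average log2 CPM of at least 1 were those of XXbac-BPG27H4.8 (214 and 350 against 0 and 1 reads), XXbac-BPG254F23.6 (67 and 122 against 3 and 3 reads), which overlaps HLA-DQB1, and POU5F1, the pluripotency factor, which lies between HLA-E and HLA-C (log2 fold change -4.35 ± 0.57).

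**Figure D3:**
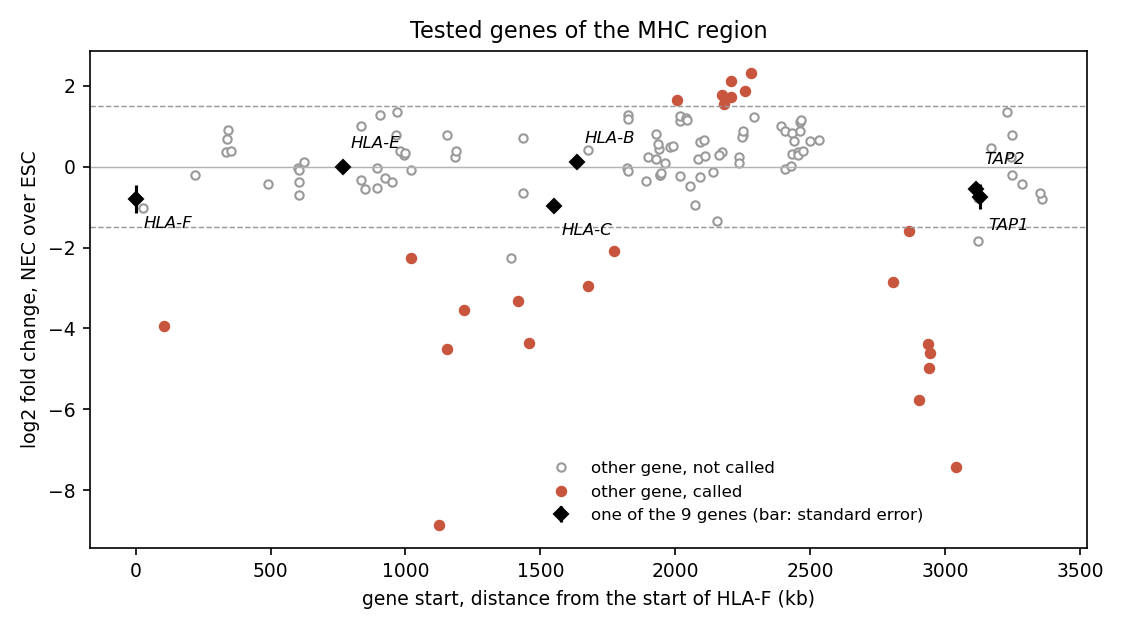
Log2 fold change (NEC over ESC) of each tested gene of the MHC region against the distance of its start from the start of HLA-F in kb. Filled circles are genes called, open circles are genes not called, and black diamonds with standard errors are HLA-F, HLA-E, HLA-C, HLA-B, TAP2 and TAP1, all between -0.98 and 0.12, while falls down to -8.87 lie between them and rises gather between 2008 and 2281 kb.

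The mean profile of HLA-B, HLA-C, HLA-E, HLA-F and B2M over the libraries was compared with all genes by the Euclidean distance between centred log2 CPM over the 4 libraries. It was 0.21 and 0.088 in the ESC libraries and -0.042 and -0.26 in the NEC libraries. HLA-C and HLA-F alone had lower means in NECs, so that this average does not describe HLA-B, HLA-E or B2M. Genes with an average log2 CPM of at least 5 that lay nearest to it included RPL8 (distance 0.0189), LMAN1 (0.038), EFHA1 (0.0578) and COX4I1 (0.0679), a comparison that rests on 4 libraries.

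In PCHi-C, ligated fragment pairs are pulled out by probes against promoter fragments, here called baits, and a promoter-interacting region (PIR) is the fragment paired with a bait. The lists hold CHiCAGO scores, which weigh the reads of a fragment pair against those its distance would give, for pairs that score at least 12. Lists were made for each replicate and for the reads of both replicates combined, here called merged, and they give no read numbers, so that the depth behind a score is unknown. With 2 replicates in each cell type, the smallest two-sided p of an exact permutation test is 0.333, and PIR numbers are given without a test. The median over baits that had any PIR was 3 in each merged list.

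The 8 baits together had 55 PIRs in the merged ESC list and 26 in the merged NEC list. In the separate lists of the replicates, ESCs had 61 and 59 PIRs and NECs 31 and 42, without overlap. With pairs of baits left out, the merged numbers were 11 in ESCs and 11 in NECs, so that the difference was made up of pairs of baits. Without the BTNL2 bait the merged numbers were 40 and 26. B2M had no fragment holding its start in any list. Over the 6 lists there were 134 pairs of a bait and a PIR, on 96 distinct fragments because some fragments paired with several of the baits. All lay on chromosome 6, and 3 of the 134 pairs were called in all 4 replicates while 86 were called in at most 1. In both ESC replicates 25 pairs were called, and 14 of these were called in neither NEC replicate, where the share over all baits was 30.6%. The BTNL2 bait alone gave 12 of the 25 and 9 of the 14. In both NEC replicates 7 pairs were called, and 0 of these were absent from both ESC replicates, where the share over all baits was 32.1%. Of the 55 merged ESC pairs, 14 were in the merged NEC list too, beside 44.2% over all baits. Here BTNL2 gave 15 of the 55 and 0 of the 14.

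**Figure D4:**
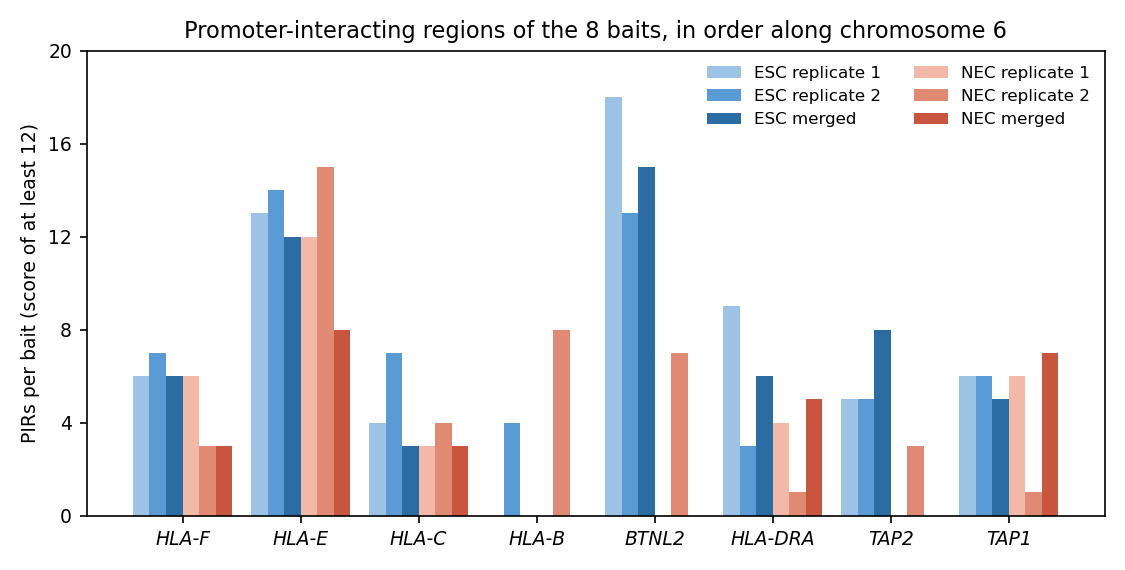
Number of PIRs (score of at least 12, y axis) of the 8 baits in each of the 6 lists, in order along chromosome 6, with blue bars for ESCs and red bars for NECs. BTNL2 has 18 and 13 PIRs in ESC replicates against 0 and 7 in NEC replicates, HLA-E has 12 to 15 in all 4 replicates, and HLA-B has PIRs only in the second replicates.

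The BTNL2 bait (chr6:32377864-32381597) had the most PIRs of the 8 in the merged ESC list and none in the merged NEC list. In ESC replicate 2, HLA-E had 14 PIRs and BTNL2 13. It had 18 PIRs in ESC replicate 1, 13 in ESC replicate 2 and 15 merged, more than 93.4% of all baits, against 0 in NEC replicate 1, 7 in NEC replicate 2 and 0 merged. The ESC replicates thus lay above the NEC replicates, which themselves differed. Of 2850 baits with at least 10 merged ESC PIRs, 0.421% had no merged NEC PIR, and the converse held for 0.499% of 2804 baits. In the second NEC replicate, 54 baits had 7 or more PIRs with none in the first, of 3263 baits with 7 or more, and 17 of the 54, BTNL2 and HLA-B among them, had no merged NEC PIR. BTNL2 may have been picked for this pattern with earlier results known, so these shares are background and no measure of its rarity.

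The highest score of the BTNL2 bait was with the bait of HLA-DOB, a modulator of class II peptide loading, 405.2 kb away, at 42.94 and 31.03 in the ESC replicates and 41.23 merged. The same pair scored 21.23 in NEC replicate 2 and was absent from the other NEC lists. Pairs with the baits of HLA-DQB1-AS1 (245.8 kb, 32.13 merged) and HLA-DRB1 (179.1 kb, 23.09 merged) were called in both ESC replicates and in no NEC list. The pair with HLA-DQB1 (255.5 kb, 19.32 merged ESC) was also called in NEC replicate 2, at 12.84. The BTNL2 bait was also paired with 3 of the other genes described here in ESCs, with merged scores of 19.71 for HLA-DRA (27.8 kb), 18.77 for TAP2 (424.0 kb) and 18.28 for TAP1 (442.7 kb), each called in both ESC replicates. Of these 3 pairs, that with TAP1 was the only one in a NEC list, in replicate 2 at 15.59. Further pairs in both ESC replicates joined the baits of TNXB, XXbac-BPG154L12.4, C6orf10, HLA-DQA2, and PSMB9 with PSMB8. Altogether 12 of the 15 merged ESC pairs were called in both ESC replicates, and 9 pairs were called in both ESC replicates and no NEC replicate.

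Genes that start in the 15 merged ESC PIRs of BTNL2 number 20. Apart from HLA-DRA, TAP1 and TAP2, 11 of 17 were tested, of which HLA-DRB1, HLA-DQB1 and HLA-DQB1-AS1 fell, where 9.68% of all tested genes fell, and HSD17B8 rose (46 and 48 against 178 and 117 reads, log2 fold change 1.58 ± 0.34). HLA-DQB1-AS1 overlaps HLA-DQB1, with 43 and 83 reads in ESCs and 2 and 4 in NECs, so that these are not independent counts. In the MHC region, which holds all of the genes named here as falling, 16 of 120 tested genes outside the 9 fell. In the class II list 4 of 9 tested genes other than HLA-DRA fell. HLA-DOB, the PIR with the highest score, had 1 read, in the second ESC library, over the 4 libraries.

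**Figure D5:**
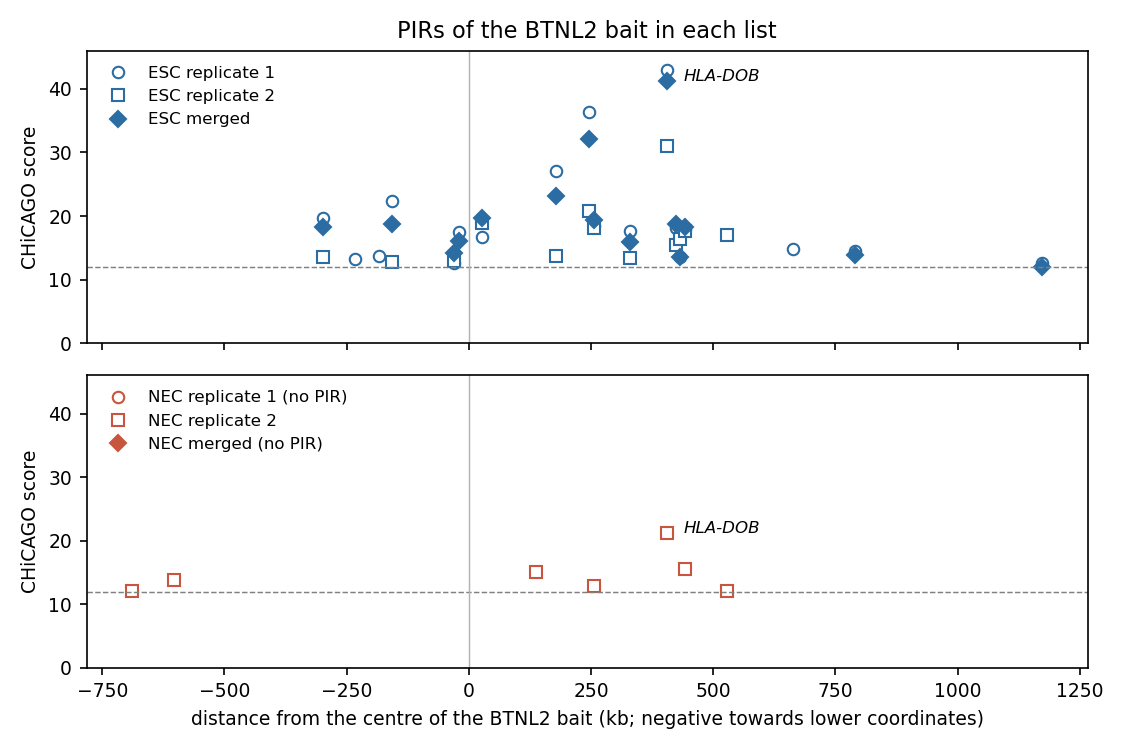
CHiCAGO score of each PIR of the BTNL2 bait (y axis) against its distance from the centre of the bait in kb (x axis), with ESCs above and NECs below, circles and squares for replicates 1 and 2, filled diamonds for merged lists and a dashed line at the threshold of 12. ESC scores reach 42.94 at HLA-DOB, NEC replicate 2 has 7 PIRs up to 21.23, and NEC replicate 1 and the merged NEC list have none.

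A feature of the BTNL2 bait was that all of its 22 distinct PIRs were themselves baits, while its own fragment was not called as the PIR of any other bait. Over all baits, 31.6% of merged ESC pairs had a bait at the other end, and every PIR was a bait for 7.12% of the 2850 baits with at least 10 merged ESC PIRs. Pairs of baits made up 44 of the 55 merged ESC PIRs of the 8 baits and 15 of the 26 in NECs. HLA-B, HLA-C, HLA-E and HLA-F shared this feature, with 8 of 8, 11 of 12, 29 of 31 and 10 of 12 PIRs that were baits and 0 calls from other baits onto their fragments. TAP1 had the opposite pattern, with 0 of 19 PIRs that were baits and 7 merged ESC and 6 merged NEC calls from other baits onto its fragment. These counts of distinct PIRs run over all 6 lists, unlike the 7.12%. The share of all baits whose fragments received no call from other baits was not counted. How well the probes captured each bait is not given in the lists, and its part in these patterns was not tested.

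HLA-E (bait chr6:30455605-30461699) had 13 and 14 PIRs in ESC replicates against 12 and 15 in NEC replicates, which overlap. Its 8 merged NEC PIRs were all among its 12 merged ESC PIRs. It held all 3 of the pairs that were called in all 4 replicates, namely those with a bait in LINC02569 (21.5 kb, merged scores 32.9 and 34.89 in ESCs and NECs), with a bait in exons and introns of ABCF1 (94.0 kb, 31.05 and 20.08) and with the bait of C6orf136 (158.2 kb, 31.88 and 26.31). Both ESC replicates also called its pairs with the baits of TRIM31, HCG21, and MRPS18B with PPP1R10 and ATAT1, and both NEC replicates those with PRR3 and GNL1 and with DPCR1. HLA-F (bait chr6:29689237-29694703) had 6 and 7 PIRs in ESC replicates against 6 and 3 in NEC replicates, and its 3 merged NEC PIRs were all called in ESCs. These were the baits of GABBR1 (91.0 kb, 20.04 and 12.48), ZNRD1 (332.4 kb, 12.77 and 17.1) and TRIM31 (381.6 kb, 22.05 and 24.16). The pair of HLA-F with PPP1R11 (342.4 kb, 14.89 merged) was called in both ESC replicates and in no NEC list.

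HLA-C (bait chr6:31233604-31263369) had 4 and 7 PIRs in ESC replicates against 3 and 4 in NEC replicates, with 3 in each merged list, of which 2 were shared. A shared pair joined it to the bait of POU5F1 at 98.7 kb, with merged scores of 14.06 in ESCs and 13.74 in NECs, although only 1 replicate of each cell type called it. The highest merged ESC score was with HCG21 (329.3 kb, 16.88). The highest merged NEC score, 14.28, was with a bait in DDX39B and MCCD1 at 253.5 kb, the only pair of HLA-C in both replicates of a cell type, which ESC replicate 2 also called at 13.59. HLA-B (bait chr6:31318713-31338319) had no PIR in either merged list or either first replicate, but 4 in ESC replicate 2 and 8 in NEC replicate 2. All 4 of the former were among the 8, with the baits of GTF2H4 and VARS2 (453.8 kb), DPCR1 (417.9 kb), HCG21 (409.3 kb) and POU5F1 (178.8 kb, 13.07 and 15.79).

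TAP1 (bait chr6:32819180-32825604) had 6 and 6 PIRs in the ESC replicates, 6 and 1 in the NEC replicates, and 5 and 7 merged, of which 0 were shared. The 2 merged ESC PIRs in both ESC replicates were a fragment in exons of TSBP1 at 484.1 kb (18.11) and an intergenic fragment at 432.4 kb (15.16). None of the 7 merged NEC PIRs was in NEC replicate 2, and the highest score, 13.26, was with a fragment in an exon of BTNL2 at 452.3 kb. From other baits, the fragment of TAP1 was called by HLA-DOA in all 6 lists, at 25.32 merged in ESCs and 20.12 in NECs. TAP2 (bait chr6:32799345-32808149, which also holds the start of XXbac-BPG246D15.9) had 5 and 5 PIRs in the ESC replicates and 8 merged, against 0 and 3 in the NEC replicates and 0 merged. Its highest merged score, 14.17 with the bait of TNXB at 721.4 kb, was the only TAP2 pair in both ESC replicates. HLA-DRA (bait chr6:32405593-32409533) had 9 and 3 PIRs in ESC replicates against 4 and 1 in NEC replicates, with 6 and 5 merged, and its shared pair was with HLA-DOB (377.4 kb, 12.34 and 16.76). Only 1 replicate of each cell type called that pair. A fragment in exons of TAP2 at 384.0 kb was the only HLA-DRA pair in both ESC replicates, at 15.6 merged.

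Read against the other baits, 2 of the 8, BTNL2 and TAP2, had more PIRs in both ESC replicates than in both NEC replicates, and 0 had the converse, where the shares over all baits were 12.8% and 13.1%. The same was found for 23 and 7 of the 98 baits of the MHC region that hold none of the 9 gene starts. Those 98 baits had 687 and 639 PIRs in ESC replicates against 525 and 543 in NEC replicates, and 933 and 586 in the merged lists, while the merged lists as a whole held 99302 and 99181 pairs. Summed PIRs were therefore fewer in NECs over the region as well as over these 8 baits. In the merged lists this held for HLA-E, HLA-F, HLA-DRA, TAP2 and BTNL2. HLA-B and HLA-C had equal numbers in both cell types, and TAP1 had more in NECs (7 against 5).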

How the data were processed

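RNA-seq counts and PCHi-C lists were analysed for H9 ESCs and day 7 NECs. Following the study's methods, the authors trimmed single-end reads with Trim Galore and mapped them to GRCh37 with TopHat (the submitters' processing notes list TopHat2 2.0.8b and Bowtie 1.0.0). The deposited counts are whole reads per gene of an Ensembl gene set, made in SeqMonk without regard to strand. For PCHi-C the authors filtered HindIII fragment pairs with HiCUP, and the deposited score is the CHiCAGO score, listed from 12 for each biological replicate and for both combined. Read numbers behind the scores are unknown.

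The 9 genes and all lists were chosen with earlier results of these data known. Counts were fitted with edgeR 4.0.16 in R 4.3.3 (filterByExpr with a minimum count of 10, TMM, quasi-likelihood test, Benjamini-Hochberg adjustment over 17564 genes), and the code was tested on simulated data. Calls needed an adjusted p under 0.05 together with a log2 fold change beyond 1.5 in either direction. DESeq2 1.42.0, other scalings, no filter, the replicate number as a block and leaving out each library were alternatives. The p-values measure the spread between 2 libraries per cell type. Exon lengths came from GENCODE on GRCh37, matched by gene ID. Standard errors of log2 fold changes were derived from the fold change and the F statistic of the quasi-likelihood test, so that they include spread between libraries. Floors of 3 counts cover counting error only.

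By rule, the genes named from lists were called ones with an average log2 CPM of at least 1, at most 6 per list and direction, with 5 per direction in the MHC region, where 4 genes qualified among those that rose. All list genes named without a call were chosen after their values were seen. At each bait, the PIRs named by rule were those with the highest merged score, those in both replicates of a cell type, and genes starting in PIRs that were baits. Other PIRs were chosen after their values were seen. Some genes of the lists and of the named gene rule are not reported here. Python 3.11.15 with pandas 2.3.3, numpy 2.4.6 and matplotlib 3.10.9 made tables and figures.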

Additional observations from a re-analysis of the deposited data

How the results depend on the processing

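Leaving out each library in turn gave 3294 to 4105 called genes (3697 with all libraries), 20 to 26 in the MHC region (23), 9 of the interferon list each time (9), 7 to 9 antigen presentation genes lower in NECs (9) and 2 to 5 higher (4), the lowest of the last without the second ESC or the first NEC library, where BTN3A3 and BTNL9 were lost. With no fold threshold, 10738 genes, 77 of the MHC region, 16 of the interferon list, and 15 lower and 18 higher antigen presentation genes passed. Other scalings, DESeq2 and no filter left these counts within 1.5 times. Leaving out a library leaves 1 sample in an arm, which is assumed to vary like the others. Library numbers did not pair the samples (r = 0.061 across genes between same-numbered libraries), and with the replicate block 3698 genes, 25 of the MHC region, 9 of the interferon list, and 10 lower and 4 higher antigen presentation genes were called. The added gene was PSMB8, which DESeq2 also called.

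Of 63 values of the 7 tested genes under these alternatives, 57 lay within 1 SD of the replicates. HLA-F ranged from -1.25 to -0.43, TAP1 from -1.27 to -0.36 and HLA-E from -0.13 to 0.11 on the log2 scale. HLA-DRA, which did not pass the filter, entered the fit without the filter (log2 fold change -6.20) and without the first (-6.23) or second (-6.16) NEC library, values that depend on the prior count since its NEC reads were 0. BTNL2 gave -0.70 without the filter.

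At a score of at least 15 the 8 baits had 21 PIRs in ESCs, 10 in NECs and 4 shared, against 55, 26 and 14 at 12. With pairs of baits left out they had 11, 11 and 0. In single replicates they had 59 to 61 PIRs in ESCs, 31 to 42 in NECs and 10 to 18 shared. PIRs within 10 kb counted as shared gave 21. Numbers without the BTNL2 bait (40 and 26) were chosen after seeing the data. Adding rows of alternative haplotypes was not run, because the table lists primary chromosomes alone. Read numbers behind the scores are unknown here, and HLA-DRA, BTNL2 and NLRC5 are limited by depth.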
